A study of Rattus norvegicus with 2 samples.

Results

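The axon guidance ligands and receptors of the rat optic nerve libraries were taken by symbol: every gene of the semaphorin (classes 3 to 7), plexin, neuropilin, Eph, ephrin, Slit, Robo, netrin and UNC5 families, 69 of the 25399 genes in the files. They comprised 35 ligands, 32 receptors and 2 genes, Unc50 and Unc5cl, that share only the start of their name with the UNC5 receptors. Cells from the optic nerve, which the paper describes as a mixed primary culture of glia, were sequenced in 1 library from WT (Sprague Dawley) rats and 1 from Nuc1 rats, which carry a spontaneous insertion in Cryba1, the gene of βA3/A1-crystallin. Neither library had a further allele or an added agent in its labels. Both libraries are labelled postnatal day 7, whereas the methods give 2-day-old pups for the cultures of astrocytes, and rats of both sexes were used in the study. The number and sex of the animals behind each library were not given in the sources used here.

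Guidance cues act in ligand and receptor pairs that steer growing axons and migrating cells. Secreted class 3 semaphorins bind neuropilins, which signal through plexins, while most membrane-bound semaphorins bind plexins directly. Ephrins on 1 cell bind Eph receptors on its neighbour, Slits bind Robo receptors, and netrins bind UNC5 receptors and Dcc. In the optic nerve, cues of this kind are known for guiding retinal axons and for positioning glia and their precursors.

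The WT library kept 1963 cells and the Nuc1 library 1782, with medians of 14050 and 16577.5 unique molecular identifiers (UMIs, each 1 captured transcript molecule) per cell, and they shared 2 cell barcodes. Clustering without the 69 genes gave 10 clusters. Of these, 5 (clusters 0, 1, 2, 4 and 5) were rich in collagen and proteoglycan transcripts and are called collagen-rich. Together they held 1745 WT and 1265 Nuc1 cells. Cluster 0 was led by Igfbp5, Ccn3 and Rspo3, cluster 1 by Actg2 and Penk, cluster 2 by Cldn11 and Thbd, cluster 4 by Inmt and Cyp26b1, and cluster 5 by genes of dividing cells. The other groups were astrocyte-like (Gfap, Aqp4, Fabp7; 107 WT and 350 Nuc1 cells), motile cilia-like (Dynlrb2, Tppp3; 14 and 104), oligodendrocyte lineage-like (Bcas1, Cnp; 52 and 10), macrophage or microglia-like (Tyrobp, Cd68; 23 and 22) and a group led by Ttr that matched no marker list (22 and 31). The composition differed, with cluster 4 making up 2.75% of WT cells and 20.6% of Nuc1 cells. Thus most cells labelled optic nerve were not astrocyte-like. Of the endothelial markers, Cldn5, Kdr and Tie1, and of the mural markers, Kcnj8 and Abcc9, reached at most 3.2 CPM in any cluster. The other endothelial and mural markers of the lists are not given here, so that absence of these cells is not shown. Of the neuronal markers, Snap25 reached at most 4.9 CPM, whereas Stmn2 reached 902 CPM in WT astrocyte-like cells. All levels below are CPM: within a cell group and a library, the UMIs of a gene were summed and divided by the group's total, times 1000000. A 3′ UMI counts 1 molecule whatever its length, so that levels were not divided by length. Whether transcripts of different genes were captured and assigned to their gene equally well was not tested. Low levels and ranks between genes carry that limit. Brackets give exact 95% intervals, Poisson for a level and conditional for a ratio, which cover counting error only. With 1 library per genotype, no difference between WT and Nuc1 has a replicate check and no p-value is given.

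Of the 69 genes, 50 had at least 20 UMIs in each library, and no UMI of Epha8, Epha10, Robo4 or Slit1 was found in the cells kept, which allows up to 0.103 CPM in WT and 0.132 CPM in Nuc1 collagen-rich cells. To separate a group's own transcripts from RNA carried over from the abundant collagen-rich cells, a gene was called detected in a group only with at least 10 UMIs and an interval above the level that carry-over would give. Carry-over was the highest ratio, among 5 collagen and proteoglycan genes, of the group's level to that of collagen-rich cells, and for collagen-rich cells that of Gfap, Aqp4 and Mlc1 to astrocyte-like cells. It was 17.0% in WT and 16.2% in Nuc1 astrocyte-like cells and 92.8% and 123% in the Ttr group, so that few genes could pass in the latter. A ratio of 123% is more than carry-over alone could give. For the Ttr group the ratio is therefore an upper bound and no estimate of carried-over RNA. With the median of the 5 ratios instead of the highest, 13 members were detected in the Ttr group of each library, and 35 in WT and 42 in Nuc1 astrocyte-like cells. In collagen-rich cells, 50 members were detected in WT and 48 in Nuc1, of 61 with any UMI in each library, where the share among all genes with a UMI was 79.5% and 78.5%. They included 27 of the 35 ligands and 22 of the 32 receptors in WT. In astrocyte-like cells, 26 of 50 members with a UMI were detected in WT and 35 of 54 in Nuc1, with 68.4% and 72.6% of all genes. They included 16 receptors and 9 ligands in WT and 18 receptors and 16 ligands in Nuc1. The level to be passed rises with a gene's level in collagen-rich cells, where the ligands Slit2, Sema3d and Sema3c were abundant. The split into receptors and ligands therefore depends on the rule and does not show that receptors prevail. Smaller groups had fewer UMIs and gave fewer members, and whether depth accounts for this was not tested. The counts were 5 of 39 and 15 of 49 in motile cilia-like cells (47.6% and 68.9% of all genes), 15 of 43 and 2 of 28 in oligodendrocyte lineage-like cells (59.8% and 25.0%), 8 of 40 and 4 of 46 in the Ttr group (15.8% and 9.77%), and 1 of 23 and 0 of 22 in macrophage or microglia-like cells (28.6% and 15.3%), in WT and Nuc1 respectively. With the highest ratio, the members detected in collagen-rich cells were thus close to the share of all genes, and those in the other groups below it in both libraries, apart from the Ttr group of WT. The share of all genes with the median ratio is not given, so that this comparison is made for the highest ratio only. For 33 of the 50 members with at least 20 UMIs in each library, the highest of the 6 cell groups was the same in WT and Nuc1, against 50.1% of all genes. Leaving out the oligodendrocyte-like and macrophage-like groups, whose few UMIs can set the highest level, gave 33 of 48 members against 61.2% of all genes, so that the members then stood close to the background.

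**Figure D1:**
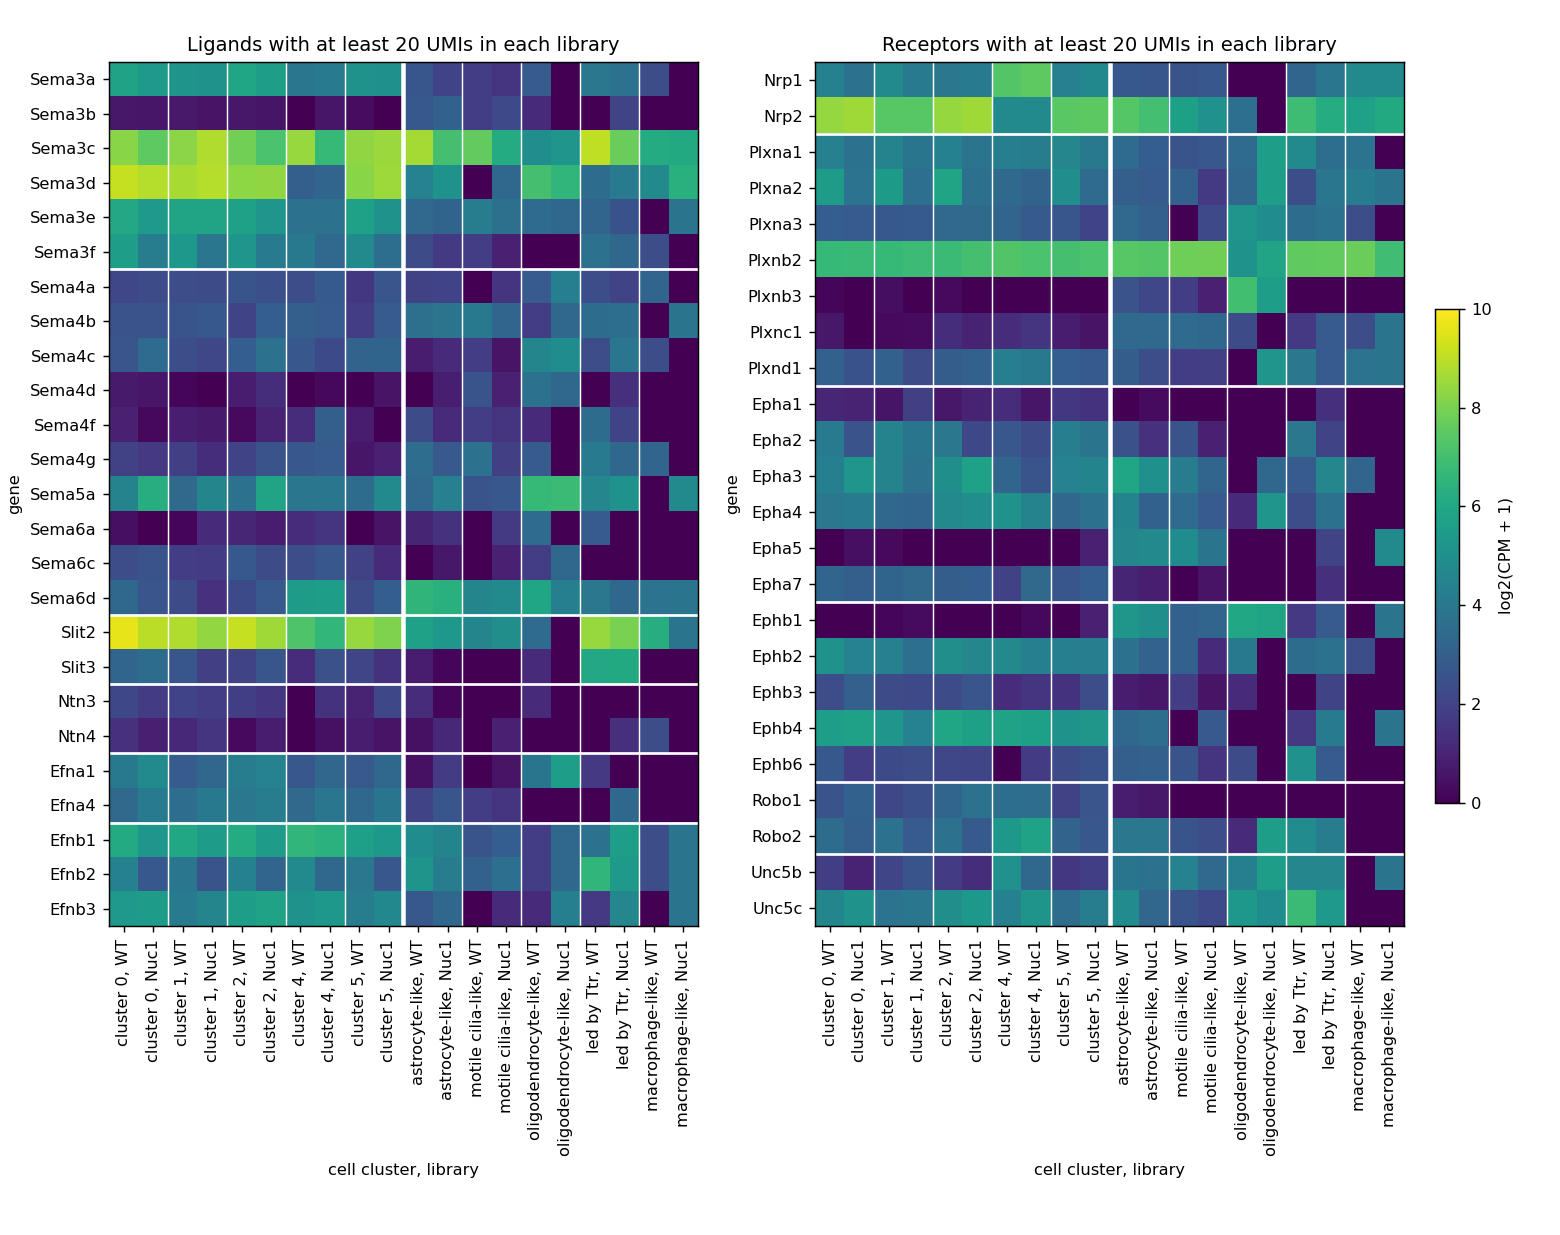
Levels of the ligands (left) and receptors (right) with at least 20 UMIs in each library, as log2(CPM + 1), in the 10 clusters and both libraries, with the collagen-rich clusters left of the thick line and families separated by horizontal lines. Slit2, Sema3c and Sema3d are the brightest ligands and Nrp2 and Plxnb2 the brightest receptors, and Nrp1 is bright in cluster 4.

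Slit2, a secreted ligand of Robo receptors, was the most abundant member. It stood at 793 CPM (775 to 812) in WT and 499 CPM (481 to 517) in Nuc1 cells of cluster 0, and the order of the collagen-rich clusters was the same in both libraries: cluster 0, cluster 2 (550 and 375), cluster 1 (453 and 331), cluster 5 (352 and 269) and last cluster 4 (152 and 96.6). In astrocyte-like cells Slit2 was at 51.1 and 39.6 CPM, under the level that carry-over would give, and was not called detected. In the Ttr group it was at 347 and 256 CPM and was not called detected either. With a carry-over ratio of 92.8% and 123%, a gene abundant in collagen-rich cells could hardly pass there. The rule thus cannot tell whether cells of the Ttr group express Slit2. Slit3 had another pattern. It was highest in the Ttr group, at 63.9 CPM (43.1 to 91.3) in WT and 66.7 CPM (48.1 to 90.1) in Nuc1, where the collagen-rich cells held 5.59 and 5.64 CPM. From 30 WT and 42 Nuc1 UMIs, the Slit3 levels of the Ttr group in the 2 libraries were not distinguishable.

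Robo receptors were low in the collagen-rich clusters with the most Slit2. Their sum (Robo1 to Robo4) was 15.8 CPM in WT and 14.8 CPM in Nuc1 cells of cluster 0 but 50.8 CPM (35.6 to 70.3) and 65.2 CPM (58.8 to 72.2) in cluster 4, the collagen-rich cluster with the least Slit2. The other clusters did not run opposite to Slit2. Cluster 2, second in Slit2, had a Robo sum of 20.9 CPM in WT and 19.3 CPM in Nuc1. Cluster 5, next to last in Slit2, had the lowest sum, at 10.9 and 10.8 CPM. Robo2 made up most of the sum in cluster 4, at 39.5 CPM (26.2 to 57.1) and 53.8 CPM (48.0 to 60.2), against 6.18 to 12.7 CPM in the other 4 collagen-rich clusters over both libraries. Astrocyte-like cells had 14.9 and 14.8 CPM of Robo2, detected in both libraries. Robo1 was detected in collagen-rich cells only among the 6 groups and reached its highest levels in cluster 4 in WT (11.3 CPM) and in cluster 2 in Nuc1 (12.6 CPM). Robo3 had 1 WT and 4 Nuc1 UMIs.

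The secreted class 3 semaphorins were the largest ligand family by level in the collagen-rich clusters, with a sum of 1023 CPM in WT and 750 CPM in Nuc1 cells of cluster 0, and of 843 and 1018 CPM in cluster 1. Sema3d carried much of it. It was at 558 CPM (543 to 573) and 466 CPM (449 to 484) in cluster 0 and between 299 and 469 CPM in clusters 1, 2 and 5, but at only 7.05 CPM (2.29 to 16.5) and 8.59 CPM (6.36 to 11.4) in cluster 4. The near absence of Sema3d from cluster 4 was thus seen in both libraries. Sema3d was also detected in oligodendrocyte lineage-like cells, at 132 CPM (108 to 160) in WT, where carry-over would give 45.8 CPM, and at 93.6 CPM from 10 UMIs in Nuc1, 5 of them from 1 cell. In astrocyte-like cells it was at 20.6 and 33.6 CPM, under the carried-over level.

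Sema3c was spread more widely than Sema3d. In WT it was at 529 CPM (465 to 599) in the Ttr group, 397 CPM (375 to 421) in astrocyte-like cells, 350 CPM (308 to 396) in cluster 4, 302 CPM in cluster 1 and 300 CPM in cluster 0. In Nuc1 the order was another, with 443 CPM (424 to 462) in cluster 1, 357 CPM in cluster 5, 206 CPM (172 to 245) in the Ttr group, 132 CPM (125 to 140) in astrocyte-like cells and 103 CPM (95.1 to 112) in cluster 4. After each astrocyte-like cell was thinned to 10000 UMIs, which left 106 of 107 WT and 328 of 350 Nuc1 cells, a Sema3c UMI was held by 91.5% of WT cells and 59.8% of Nuc1 cells (97.2% and 79.4% unthinned). Of the other class 3 members, Sema3e (64.7 CPM in WT and 57.0 CPM in Nuc1 at its highest, in clusters 0 and 1), Sema3a (60.1 and 48.0 CPM, both in cluster 2) and Sema3f (47.0 and 17.7 CPM, both in cluster 0) were highest in collagen-rich clusters. Sema3b was the exception, detected in astrocyte-like cells at 5.68 CPM (3.25 to 9.22) and 7.68 CPM (5.98 to 9.72) beside 0.514 and 0.440 CPM in collagen-rich cells. Sema3g had 1 UMI in each library.

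The 2 neuropilins, the receptors that bind class 3 semaphorins, had opposite levels across the collagen-rich clusters. Nrp1 was at 159 CPM (131 to 192) in WT and 180 CPM (169 to 192) in Nuc1 cells of cluster 4, and between 12.8 and 26.5 CPM in the other collagen-rich clusters of either library. Nrp2 showed the reverse, at 26.8 CPM (16.1 to 41.9) and 25.6 CPM (21.6 to 30.1) in cluster 4 but at 338 CPM (326 to 350) and 383 CPM (368 to 399) in cluster 0 and 339 CPM and 384 CPM in cluster 2. The intervals of clusters 0 and 2 overlapped for Nrp2 in each library, and clusters 1 and 5 followed at 168 to 179 CPM in both libraries. In cells thinned to 10000 UMIs, which left 50 of 54 and 321 of 367 cells in cluster 4 and 517 of 670 and 312 of 390 in cluster 0, 68.0% of WT and 71.0% of Nuc1 cells in cluster 4 held a Nrp1 UMI and 16.0% and 18.4% a Nrp2 UMI, whereas in cluster 0 the shares were 17.2% and 10.3% for Nrp1 and 89.6% and 92.3% for Nrp2. Unthinned, the cluster 4 shares were 68.5% and 79.3% for Nrp1 and 14.8% and 21.0% for Nrp2. In the 52 WT and 10 Nuc1 oligodendrocyte lineage-like cells no Nrp1 UMI was found. Astrocyte-like cells expressed Nrp2, at 164 CPM (149 to 180) and 128 CPM (121 to 136) where carry-over would give 42.6 and 37.0 CPM, while their Nrp1 level of 5.68 and 5.35 CPM was not above carry-over. Both neuropilins were thus detected in the collagen-rich cells, with opposite levels in cluster 4 and the other clusters, and of the 2 only Nrp2 was detected in astrocyte-like and motile cilia-like cells.

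Since the neuropilins were highest in different collagen-rich clusters, the 250 bases before each annotated start are shown, from RefSeq on the GRCr8 build, which held a promoter for 54 of the 69 members. Capitals mark matches to GCCNNNGGC, the consensus of AP-2 factors, which reads the same on both strands and was chosen with the levels known. It occurs in 12.6% of the 33469 promoters of that length. The Nrp1 window (chr19:73256307-73256556, plus strand) holds 2 matches and the Nrp2 window (chr9:71617004-71617253, plus strand) 1, so that a match does not separate the genes. The windows have 14 and 13 CpG dinucleotides, where the median promoter has 5.
Nrp1: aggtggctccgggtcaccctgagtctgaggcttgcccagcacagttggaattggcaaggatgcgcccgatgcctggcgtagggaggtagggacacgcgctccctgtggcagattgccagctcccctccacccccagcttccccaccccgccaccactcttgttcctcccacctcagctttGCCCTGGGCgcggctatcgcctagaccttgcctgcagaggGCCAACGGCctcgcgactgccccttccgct
Nrp2: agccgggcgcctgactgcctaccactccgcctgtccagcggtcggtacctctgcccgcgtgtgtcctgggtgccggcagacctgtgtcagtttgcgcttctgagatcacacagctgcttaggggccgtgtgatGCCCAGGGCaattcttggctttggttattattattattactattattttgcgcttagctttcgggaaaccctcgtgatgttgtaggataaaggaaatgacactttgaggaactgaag

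Plexins, the signalling receptors for semaphorins, were led by Plxnb2, a receptor for class 4 semaphorins. It was at 102 to 157 CPM in every collagen-rich cluster of both libraries, at 167 CPM (152 to 183) and 158 CPM (150 to 166) in astrocyte-like cells and highest in motile cilia-like cells, at 219 CPM (175 to 270) and 225 CPM (205 to 246). Oligodendrocyte lineage-like cells had the least, at 34.3 CPM (22.6 to 49.96) in WT and 56.2 CPM from 6 UMIs in Nuc1. Plxnb2 was the only member detected in macrophage or microglia-like cells, at 213 CPM (157 to 281) in WT. The related Plxnb3 was nearly restricted to oligodendrocyte lineage-like cells, with 125 CPM (101 to 152) in WT and 46.8 CPM (15.2 to 109) in Nuc1, where 4 of its 5 UMIs (80.0%) came from 1 cell. Astrocyte-like cells had 4.97 and 3.34 CPM of Plxnb3, and the collagen-rich cells 5 UMIs in WT and 0 in Nuc1. Plxnc1, the receptor of Sema7a, was detected in astrocyte-like cells at 9.58 and 9.69 CPM beside 0.651 and 0.749 CPM in collagen-rich cells. Sema7a itself reached at most 12 UMIs in a library. Plxna1, Plxna2, Plxna3 and Plxnd1 were detected in collagen-rich cells in both libraries, and Plxnb1 was not detected in any group.

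**Figure D2:**
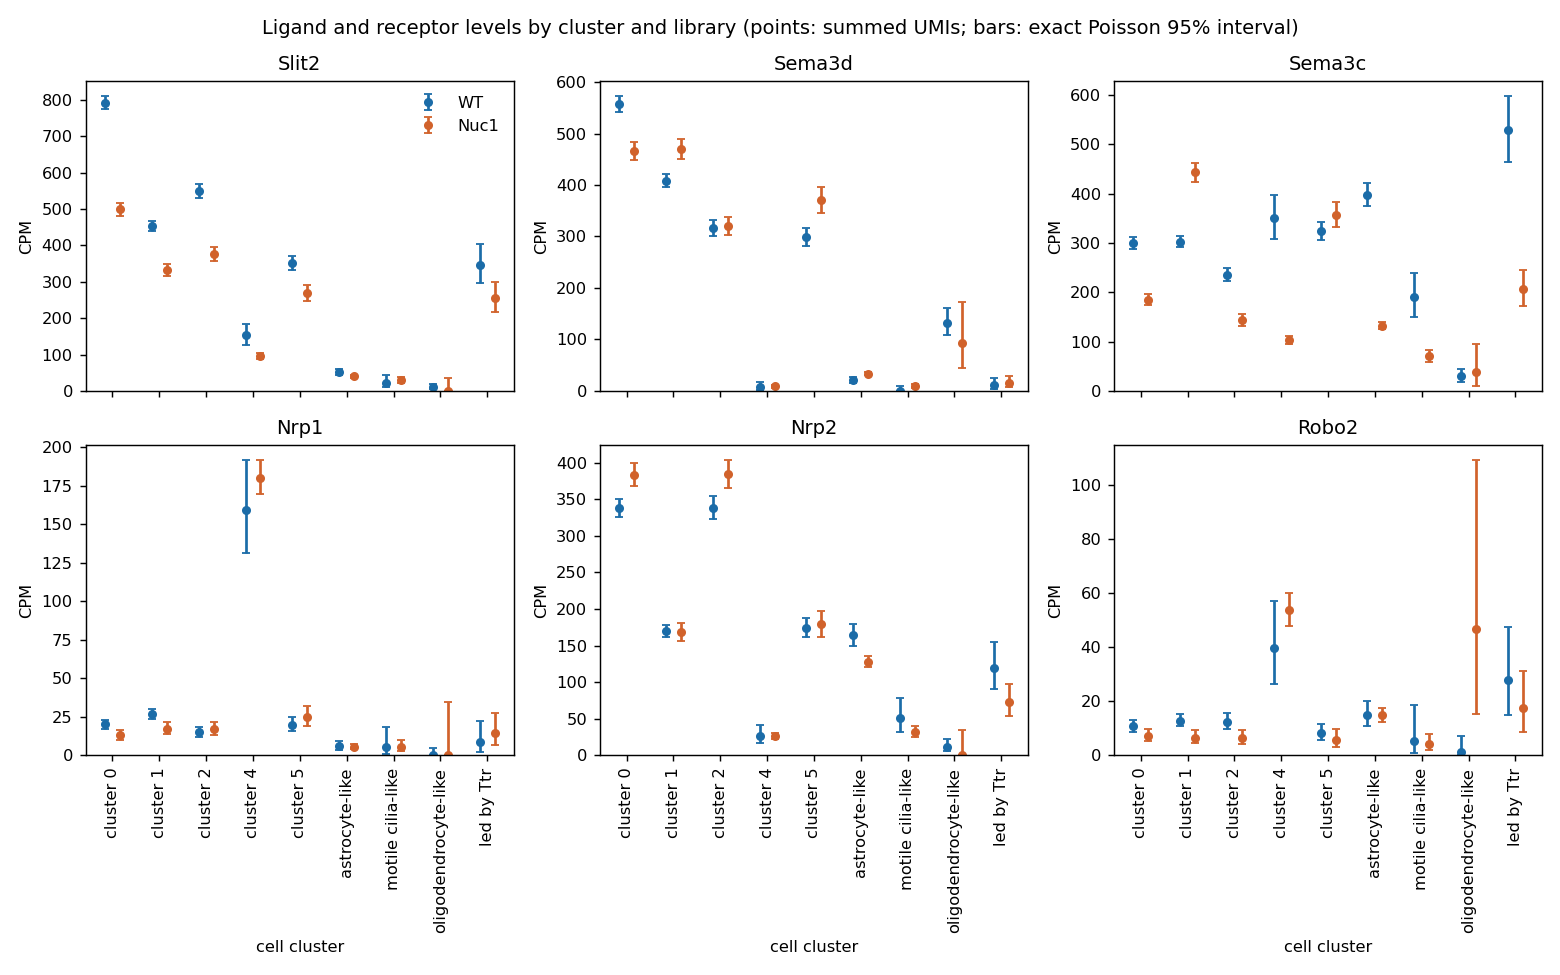
Levels in CPM of 3 secreted ligands (top) and 3 receptors (bottom) in 9 clusters, with points for summed UMIs of the WT (blue) and Nuc1 (orange) library and bars for exact Poisson 95% intervals. Slit2 and Sema3d drop in cluster 4, where Nrp1 and Robo2 are high and Nrp2 is low, in both libraries.

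Among the membrane-bound semaphorins (classes 4 to 7), Sema6d and Sema5a stood out. Sema6d, a ligand of class A plexins, was highest in astrocyte-like cells, at 91.2 CPM (80.4 to 103) in WT and 79.8 CPM (74.1 to 85.9) in Nuc1. Among the collagen-rich clusters it was highest in cluster 4, at 45.1 and 45.9 CPM, and below 10 CPM in the others. Of the WT oligodendrocyte lineage-like cells, summed Sema6d was 57.2 CPM (41.7 to 76.6), with 2 UMIs in the Nuc1 cells. Sema5a, which carries thrombospondin repeats, was highest in oligodendrocyte lineage-like cells, at 104 CPM (82.9 to 129) from 82 WT UMIs and 112 CPM (58.1 to 196) from 12 Nuc1 UMIs, of which 66.7% came from 1 cell. Sema4d, the ligand of Plxnb1, was detected only in WT oligodendrocyte lineage-like cells, apart from the collagen-rich cells of both libraries, with 10 UMIs in that group. Sema4b was detected in astrocyte-like cells at 12.1 and 13.3 CPM, above the 4.35 and 5.99 CPM of collagen-rich cells. Sema6b was detected only in Nuc1 astrocyte-like cells, at 4.12 CPM from 37 UMIs, with 8 UMIs in the WT cells and at most 1 in the collagen-rich cells of either library. Sema4c was at 22.9 CPM in WT and 28.1 CPM in Nuc1 oligodendrocyte lineage-like cells, from 18 and 3 UMIs. Sema4a, Sema4f, Sema4g, Sema6a and Sema6c stayed at or under 18.7 CPM in every cluster, and Sema5b had 4 WT UMIs and 1 Nuc1 UMI, all in oligodendrocyte lineage-like cells.

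Ephrin-B ligands, transmembrane partners of EphB receptors, exceeded the membrane-anchored ephrin-A ligands in every collagen-rich cluster of both libraries. In collagen-rich cells the ephrin-B sum was 111 CPM in WT and 96.9 CPM in Nuc1 and the ephrin-A sum 23.3 and 31.7 CPM. Efnb1 was highest in cluster 4, at 95.9 CPM (74.5 to 122) and 82.9 CPM (75.6 to 90.8), and between 37.3 and 69.7 CPM in the other collagen-rich clusters. Efnb2 was highest in the Ttr group, at 95.9 CPM (69.95 to 128) and 41.3 CPM (27.0 to 60.5), followed by astrocyte-like cells at 35.5 and 18.0 CPM. Efnb3 reached 46.0 and 53.9 CPM in cluster 2. Of the ephrin-A ligands, Efna1 and Efna4 were at most 46.8 CPM in any cluster, that value being Efna1 in Nuc1 oligodendrocyte lineage-like cells from 5 UMIs, while Efna2, Efna3 and Efna5 had 15, 1 and 8 UMIs in WT and 12, 3 and 3 in Nuc1.

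Among the Eph receptors, Ephb1 and Epha5 were found in glial groups and hardly at all in collagen-rich cells, while the EphB sum was 68.5 CPM in WT astrocyte-like and 77.7 CPM in WT collagen-rich cells. Ephb1 was at 61.0 CPM (45.0 to 80.9) in WT and 56.2 CPM (20.6 to 122) in Nuc1 oligodendrocyte lineage-like cells and at 38.7 CPM (31.8 to 46.7) and 30.6 CPM (27.1 to 34.5) in astrocyte-like cells, with 1 WT and 4 Nuc1 UMIs in all collagen-rich cells. The Nuc1 oligodendrocyte value rested on 6 UMIs, of which 83.3% came from 1 cell. Epha5 was at 23.4 CPM (18.1 to 29.8) and 24.9 CPM (21.8 to 28.4) in astrocyte-like cells and at 28.0 CPM (14.0 to 50.1) and 13.3 CPM (8.88 to 19.0) in motile cilia-like cells, with 2 WT and 4 Nuc1 UMIs in the collagen-rich cells. Ephb4, the receptor best known for binding Efnb2, had the opposite distribution, at 57.9 and 50.7 CPM in cluster 2 and 46.2 and 51.3 CPM in cluster 0 but at 9.23 and 10.8 CPM in astrocyte-like cells. Ephb2 was also highest in collagen-rich clusters, at 33.7 CPM in WT cluster 0 and 23.5 CPM in Nuc1 cluster 2. Epha3 was shared, at 58.2 CPM (49.6 to 67.8) and 31.6 CPM (28.1 to 35.5) in astrocyte-like cells and at 30.3 and 51.4 CPM in cluster 2, and it was under 9 CPM in cluster 4. Epha7 and Ephb3 were detected in collagen-rich cells alone, at or under 10.0 and 7.40 CPM in each of their clusters, and Epha1 was at or under 2.77 CPM in every cluster.

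**Figure D3:**
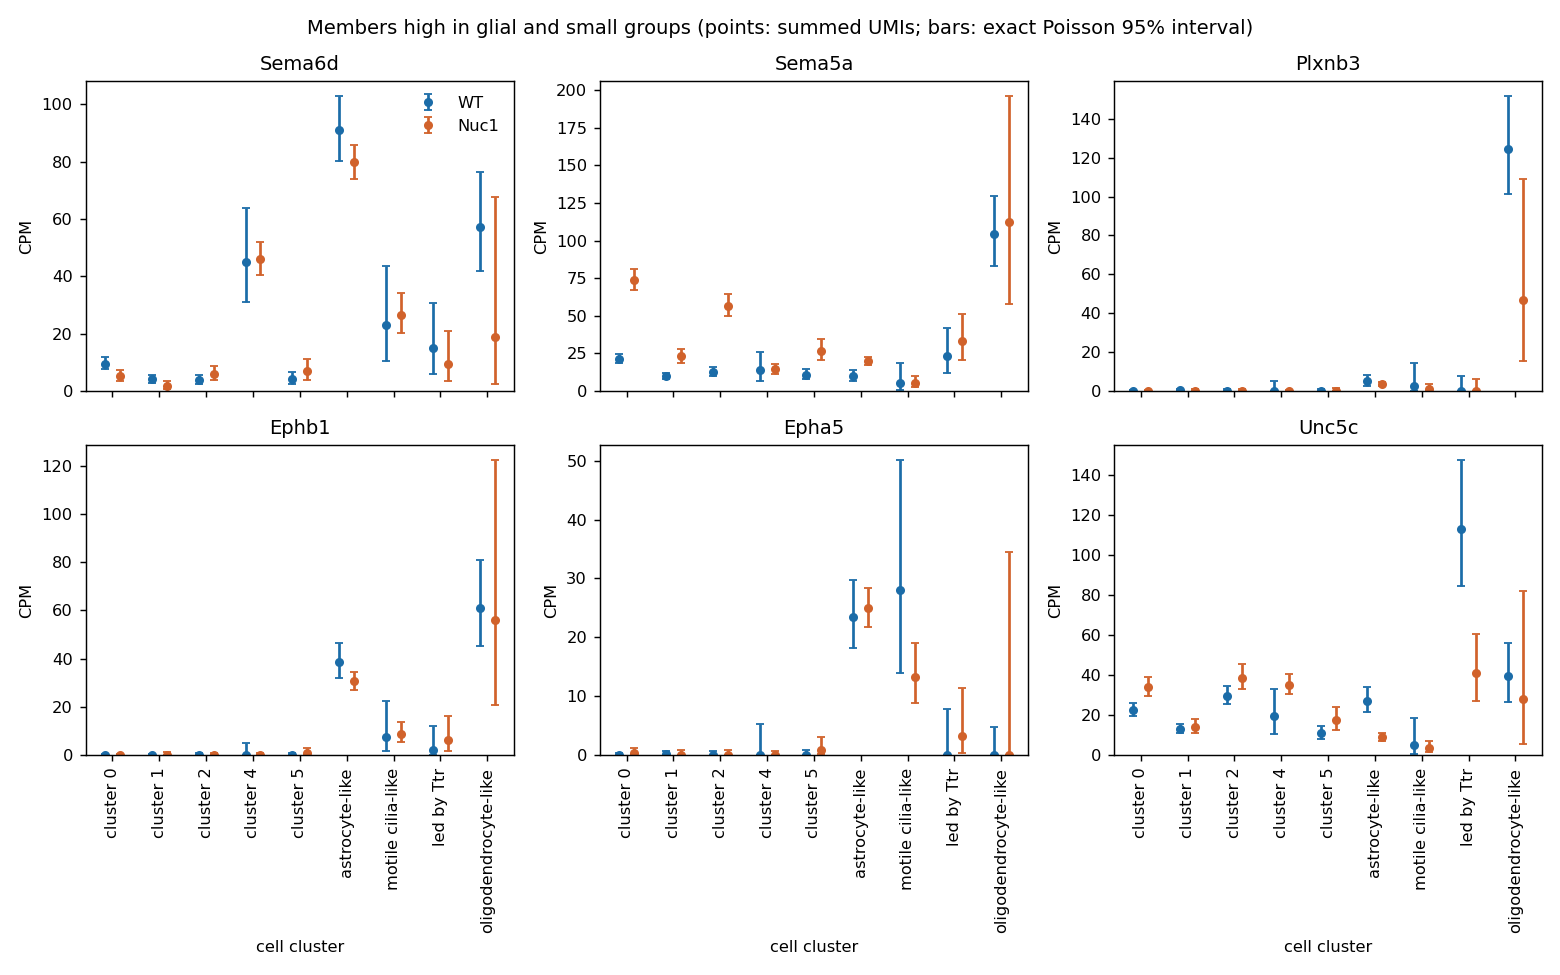
Levels in CPM of 6 members that were high in glial or small groups, in 9 clusters, with points for summed UMIs of the WT (blue) and Nuc1 (orange) library and bars for exact Poisson 95% intervals. Ephb1 and Epha5 are near 0 in all collagen-rich clusters, Plxnb3 is high in oligodendrocyte-like cells, and Sema5a is higher in Nuc1 than in WT in clusters 0, 1, 2 and 5.

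Netrins were scarce while UNC5 receptors were present. Ntn1, Ntn3, Ntn4 and Ntn5 together gave at most 5.62 CPM in each collagen-rich cluster. The highest netrin level was Ntn1 in WT oligodendrocyte lineage-like cells, at 14.0 CPM from 11 UMIs, with 0 UMIs in the 10 Nuc1 cells of that group, which allows up to 28.1 CPM. Of the other netrin receptors, Dcc had at most 2 UMIs in astrocyte-like or collagen-rich cells of a library. Neo1 was at 56.0 CPM in WT and 32.4 CPM in Nuc1 collagen-rich cells and at 25.6 and 18.5 CPM in astrocyte-like cells. Unc5c was highest in the Ttr group, at 113 CPM (84.6 to 148) in WT and 41.3 CPM (27.0 to 60.5) in Nuc1, where 46.2% of its 26 UMIs came from 1 cell and the interval did not clear the 36.2 CPM set by the carry-over rule, an upper bound there. In collagen-rich cells Unc5c was at 19.1 and 29.4 CPM. Unc5b was at 13.8 and 12.4 CPM in astrocyte-like cells beside 3.46 and 4.14 CPM in collagen-rich cells, and Unc5a and Unc5d had at most 1 UMI in a library. Unc50, which is no UNC5 receptor, lay between 43.7 and 71.3 CPM in every cluster of both libraries apart from the small oligodendrocyte-like and macrophage-like groups, and Unc5cl had 3 UMIs in WT and 0 in Nuc1.

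The comparison of Nuc1 with WT asked which members differed between the 2 libraries within a cell group. A member was counted as differing when its level differed at least 2-fold with an interval clear of 0 on the log2 scale, among genes with at least 20 UMIs. In the collagen-rich clusters together, 5 of 50 members were higher in Nuc1 (6.67% of all genes) and 6 lower (4.80%), and the median log2 ratio of Nuc1 over WT was 0.08 for members and 0.03 for all genes. In astrocyte-like cells, 2 of 40 were higher (2.92% of all genes) and 5 lower (6.61%), with medians of -0.20 and -0.12. The split of all genes there depended on scaling: of all genes past the threshold, 30.6% were higher in Nuc1 with CPM, 45.9% with TMM scaling and 41.6% with the median ratio set to 0, while the members counted stayed 2 and 5. By cluster, the members higher and lower were 1 and 6 of 41 in cluster 0 (3.46% and 5.69% of all genes), 1 and 4 of 41 in cluster 1 (2.84% and 5.17%), 2 and 5 of 39 in cluster 2 (3.88% and 4.67%), 0 and 3 of 38 in cluster 4 (3.09% and 3.01%), and 2 and 3 of 34 in cluster 5 (2.82% and 3.69%). The members lower in Nuc1 thus made up a larger share than among all genes in each of these groups, from few genes that recurred across clusters, and those cells come from the same 2 libraries.

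Plxna2, a plexin that pairs with neuropilins and also binds class 6 semaphorins, was lower in Nuc1 in 4 of the 5 collagen-rich clusters. It was at 43.4 CPM in WT and 12.9 CPM in Nuc1 in cluster 0, 42.6 and 11.7 CPM in cluster 1, 57.0 and 11.9 CPM in cluster 2, and 28.5 and 10.4 CPM in cluster 5. Their log2 ratios were -1.75 (-2.12 to -1.39), -1.86 (-2.30 to -1.46), -2.26 (-2.73 to -1.82) and -1.46 (-2.16 to -0.81) in these clusters. In cluster 4, with 9.88 and 8.07 CPM, and in astrocyte-like cells, with 7.10 and 6.24 CPM, Plxna2 was low in both libraries and the intervals held 0. In thinned cells of cluster 2 (264 of 316 WT and 191 of 223 Nuc1 cells), 38.3% of WT and 6.28% of Nuc1 cells held a Plxna2 UMI (48.4% and 15.7% unthinned).

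Efnb2 was lower in Nuc1 in all 5 collagen-rich clusters. Its levels were 20.1 and 5.72 CPM in cluster 0, 14.2 and 5.11 CPM in cluster 1, 19.97 and 8.65 CPM in cluster 2, 26.8 and 9.12 CPM in cluster 4, and 15.02 and 5.62 CPM in cluster 5, in WT and Nuc1. Over the collagen-rich cells together the log2 ratio was -1.33 (-1.60 to -1.07). In astrocyte-like cells it was -0.98 (-1.34 to -0.60), just short of 2-fold. The Ttr group, which was not used for the count because of its few cells, gave -1.22 (-1.97 to -0.49).

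The windows of Plxna2 and Efnb2, the members lower in Nuc1 in at least 4 collagen-rich clusters that have a RefSeq promoter in GRCr8 (chr13:108691280-108691529 and chr16:87484965-87485214, both on the plus strand), are shown for the 250 bases before the start. They hold 17 and 43 CpG dinucleotides and no GCCNNNGGC.
Plxna2: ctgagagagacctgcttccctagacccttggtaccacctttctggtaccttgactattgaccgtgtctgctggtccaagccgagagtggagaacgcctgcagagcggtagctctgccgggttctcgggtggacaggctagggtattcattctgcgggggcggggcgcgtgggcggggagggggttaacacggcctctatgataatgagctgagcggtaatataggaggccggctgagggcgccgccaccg
Efnb2: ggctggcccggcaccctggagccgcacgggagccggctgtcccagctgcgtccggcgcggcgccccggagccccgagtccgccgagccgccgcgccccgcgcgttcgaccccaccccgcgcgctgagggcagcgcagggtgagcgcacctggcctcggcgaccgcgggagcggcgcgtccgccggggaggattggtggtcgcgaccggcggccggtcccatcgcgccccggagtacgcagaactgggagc

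Sema3f, a secreted ligand with affinity for Nrp2, was also lower in Nuc1, at 39.0 CPM in WT and 14.0 CPM in Nuc1 collagen-rich cells, a log2 ratio of -1.47 (-1.66 to -1.29). Clusters 0, 1, 2 and 5 gave -1.41, -1.47, -1.18 and -1.22, and cluster 4, with 15.5 and 9.64 CPM, -0.69 (-1.64 to 0.40). In none of these clusters did Nrp2 itself differ 2-fold between the libraries. Slit2, Sema3d, Sema3c and Nrp2, the 4 most abundant members of the collagen-rich cells, differed less than 2-fold over them, with log2 ratios of -0.81 (-0.85 to -0.77), -0.39 (-0.43 to -0.34), -0.36 and -0.14 (-0.19 to -0.08). Slit2 was lower in Nuc1 in all 5 of their clusters, with ratios from -0.67 to -0.39, so that its pooled ratio lay outside the range of the clusters. The pooled cells include cluster 4, with 54 WT and 367 Nuc1 cells, which was low in Slit2, Sema3d and Nrp2. Pooled ratios do not separate levels within clusters from the share of that cluster.

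Sema5a was the member higher in Nuc1 most widely. In cluster 0 it was at 21.4 CPM in WT and 73.8 CPM in Nuc1, and in cluster 2 at 12.6 and 56.6 CPM. The log2 ratios were 1.79 (1.54 to 2.04) in cluster 0, 1.21 (0.80 to 1.62) in cluster 1, 2.17 (1.77 to 2.58) in cluster 2, 1.33 (0.74 to 1.93) in cluster 5 and 1.04 (0.45 to 1.68) in astrocyte-like cells. In cluster 4 the levels were 14.1 and 14.4 CPM, with a ratio of 0.03 (-0.92 to 1.14). The astrocyte-like ratio was under 2-fold once cells rich in collagen RNA were left out (0.78), after thinning (0.87) and with a limit of 10% mitochondrial UMIs (0.30). In thinned cells of cluster 2, 9.09% of WT and 40.8% of Nuc1 cells held a Sema5a UMI (16.5% and 56.1% unthinned). Plxnb3, which binds Sema5a, was at or near 0 in all these collagen-rich clusters.

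The other members that were higher in Nuc1 over the collagen-rich cells together were past the threshold within none of the 5 clusters. Nrp1 gave 24.6 CPM in WT and 57.7 CPM in Nuc1, a log2 ratio of 1.23 (1.10 to 1.36), but without cluster 4 the ratio was -0.36. Sema6d likewise went from 1.17 to -0.29 and Sema4f from 1.58 to -0.58 without cluster 4. Within cluster 4 Nrp1 and Sema6d had ratios of 0.18 (-0.10 to 0.47) and 0.03 (-0.51 to 0.60). Sema6a, with 11 WT and 21 Nuc1 UMIs, had 1.29, and 0.74 with an interval holding 0 without cluster 4. That cluster held 54 WT and 367 Nuc1 cells, and removing it left Sema5a as the only member at least 2-fold higher over the collagen-rich cells. Within clusters, Sema4b was higher in Nuc1 in cluster 2, with 3.14 and 6.92 CPM and a ratio of 1.14 (0.22 to 2.10), and in cluster 5, with 2.55 and 6.48 CPM and a ratio of 1.35 (0.10 to 2.66), from 10 to 28 UMIs each.

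Of the receptors of collagen-rich cells, Epha2 was lower in Nuc1, at 17.8 and 7.09 CPM with a log2 ratio of -1.32 (-1.59 to -1.07). It was past 2-fold in clusters 0 (-1.72) and 2 (-2.11) and not in clusters 1 (-0.62) and 5 (-0.47). Unc5b was lower in cluster 0 (-1.39, from 24 and 6 UMIs) and in cluster 4, at 32.4 and 9.12 CPM with a ratio of -1.83 (-2.57 to -1.06), where 26.1% of the 23 WT UMIs came from 1 cell. Robo2 was at 12.4 CPM in WT and 6.18 CPM in Nuc1 cells of cluster 2 (log2 ratio -1.003, -1.73 to -0.32). Ephb6, a receptor without kinase activity, had -1.18 (-2.12 to -0.33) in cluster 0. Sema6d was lower in cluster 1 (-1.22, -2.53 to -0.11), from 40 WT and 8 Nuc1 UMIs. Plxna4, with 28 and 5 UMIs, and the ligand Ntn1, with 23 and 2 UMIs, were lower over all collagen-rich cells, with ratios of -2.12 (-3.85 to -0.73) and -3.16 (-6.29 to -1.15) from levels under 1 CPM.

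In astrocyte-like cells Sema3c had the difference resting on the most UMIs. It was at 397 CPM from 1120 UMIs in WT and 132 CPM from 1189 UMIs in Nuc1, a log2 ratio of -1.59 (-1.70 to -1.47), and -1.70 once cells rich in collagen RNA were left out. In the collagen-rich clusters the ratio of Sema3c ran from -1.76 (-1.98 to -1.54) in cluster 4, where 25.0% of the WT UMIs came from 1 cell, to 0.55 (0.47 to 0.63) in cluster 1, so that Sema3c was lower in Nuc1 in some groups and higher in others. Unc5c was at 27.3 CPM in WT and 8.91 CPM in Nuc1 astrocyte-like cells, a ratio of -1.62 (-2.09 to -1.15), while in collagen-rich cells its ratio was 0.62 (0.46 to 0.79). Epha4, a receptor for both ephrin classes, was at 22.0 and 7.57 CPM, with -1.54 (-2.06 to -1.02), and in collagen-rich cells at 14.5 and 17.9 CPM. In thinned astrocyte-like cells, 18.9% of WT and 8.84% of Nuc1 cells held an Unc5c UMI and 21.7% and 7.01% an Epha4 UMI (46.7% and 17.7%, and 33.6% and 14.9%, unthinned). Epha2 (13 and 15 UMIs) and Sema4f (11 and 12 UMIs) were lower in Nuc1 astrocyte-like cells with ratios of -1.47 (-2.64 to -0.27) and -1.55 (-2.85 to -0.22). The interval of Epha2 held 0 with a minimum of 200 genes (-1.22) and with merging without integration (-0.996), and that of Sema4f with merging (-1.32) and after thinning (-1.95). Efna1 was higher, from 1 WT and 22 Nuc1 UMIs, with a ratio of 2.79 (0.16 to 8.15), and its interval held 0 once cells rich in collagen RNA were left out. The levels that did not differ 2-fold included the astrocyte-like members Sema6d (-0.19, -0.40 to 0.02), Ephb1, Epha5, Nrp2 (-0.36, -0.51 to -0.20), Robo2 (-0.01, -0.52 to 0.53) and Plxnb2.

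**Figure D4:**
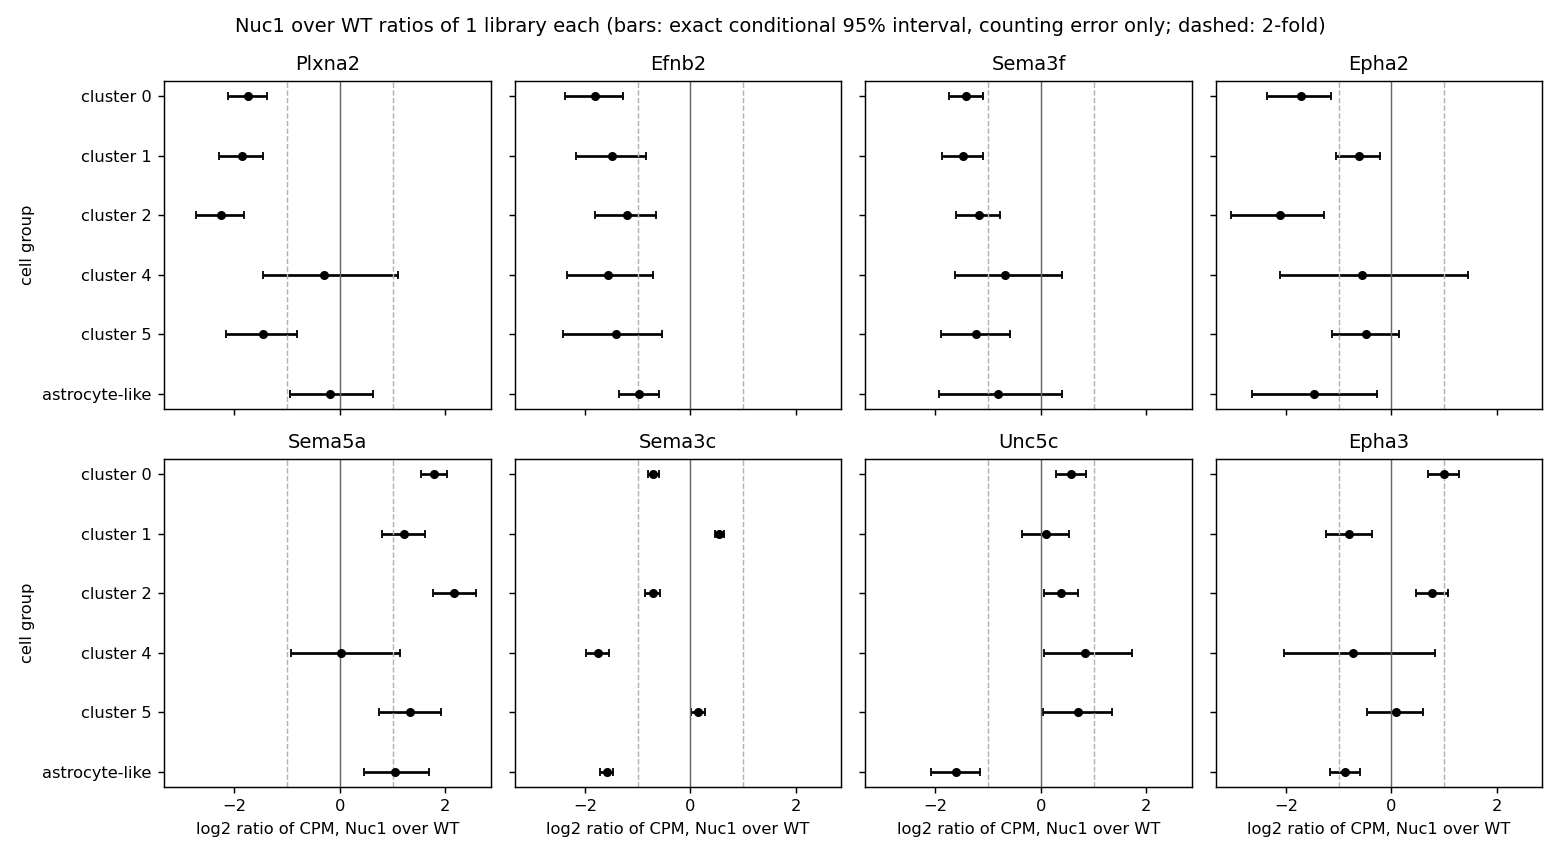
Log2 ratio of CPM, Nuc1 over WT, of 8 members in the 5 collagen-rich clusters and in astrocyte-like cells, with bars for exact conditional 95% intervals (counting error only) and dashed lines at 2-fold. Plxna2 lies below -1 in clusters 0, 1, 2 and 5, Sema5a above 1 in the same clusters and in astrocyte-like cells, and Sema3c, Unc5c and Epha3 lie on both sides of 0.

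The other genes of these pathways were a list of 57 co-receptors, further ligands and cytoplasmic partners. In astrocyte-like cells, 0 of 44 tested were at least 2-fold higher in Nuc1 and 4 lower, with a median log2 ratio of -0.33, where 2.92% and 6.61% of all genes were higher and lower and their median was -0.12. Among those with at least 50 UMIs the lowest were Dpysl4 (-1.49, -2.01 to -0.97), a collapsin response mediator, Wnt5a (-1.33), a secreted ligand, and Rnd1 (-1.22), a GTPase that binds plexins, and the highest were Vav2 (0.52), Cxcl12 (0.48) and Draxin (0.40). Srgap3, a Slit-Robo GTPase activator, was the fourth lower gene, at -1.18. In collagen-rich cells, 5 of 47 were higher and 5 lower, with a median of -0.10, beside 6.67% and 4.80% of all genes and a median of 0.03. The lowest with at least 50 UMIs were Rnd1, at 36.0 CPM in WT and 6.56 CPM in Nuc1 (-2.46, -2.71 to -2.21), Fes (-1.55), a kinase acting with plexins, and Gap43, a growth cone protein, at 164 and 62.8 CPM (-1.38, -1.47 to -1.30). The highest were Flrt1 (2.74, 2.11 to 3.42), a Robo and UNC5 binding protein, Bmp7 (2.03, 1.80 to 2.28), a secreted ligand, and Vav3 (0.83). Srgap3 and Rgmb were also lower, and Draxin, Dpysl4 and Ngef higher. The last 3 had at most 19 UMIs in a library, of which cluster 4 held 19, 13 and 13 in Nuc1. Rnd1 was past 2-fold lower in the same 4 clusters as Plxna2, and Bmp7 past 2-fold higher in clusters 0, 1, 4 and 5. Within clusters, Gap43 was counted as lower only in clusters 0 and 2 and Fes only in cluster 0. Flrt1 was counted as higher only in clusters 0 and 2. Neo1, a receptor for netrins and Rgm proteins, was at 56.0 and 32.4 CPM in collagen-rich cells and differed less than 2-fold over them together (-0.79, -0.92 to -0.66). Within clusters, Neo1 was counted as lower only in cluster 1, and its ratio in cluster 0 was -0.95.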

How the data were processed

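Cells of rat optic nerve were profiled in 1 WT and 1 Nuc1 library with a droplet-based 3′ kit. The authors deposited a matrix of raw UMI counts for each library, not normalized. The submitters' processing notes name Cell Ranger 3.1.0, STAR 2.7 and Seurat 3.1.0 and 3.1.1. The genome build was not given in the sources used here.

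Barcodes were kept from 500 genes upward if 13 mitochondrial genes took no more than 20% of their UMIs, and Scrublet (scanpy 1.11.5, expected rate 2%) marked 5 of 1968 WT and 11 of 1793 Nuc1 cells as doublets, which were left out. This is below the expected rate, so doublets can remain. Libraries were integrated in Seurat 5.3.0 (R 4.3.3) on 2000 variable genes without the members, 30 principal components and a resolution of 0.5. Clusters were called collagen-rich when 5 collagen and proteoglycan genes summed to over 4000 CPM, and otherwise named from at least 3 markers among the 10 leading genes. UMIs were summed per group and library. Intervals are exact at 95% and cover counting error only (SciPy 1.17.1), and a sum of 0 allows 3 counts. A gene with 0 UMIs in 1 library entered its ratio with 3. No p-value was computed, since cells of 1 library are not replicates.

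Members named are those at 50 CPM or more in a cluster in both libraries and those past 2-fold in a group with at least 50 cells per library. Of the partner list, the 3 highest and 3 lowest ratios with at least 50 UMIs are named. The others are given by family, and any value outside these rules was chosen after the values were seen. The members, marker lists and partner list were chosen with earlier results of these data known. Ratios and intervals were tested on simulated Poisson counts, the model that the intervals assume. That test checks the calculation only and leaves out UMIs concentrated in single cells and differences in cell composition. The alternatives were other filters, clusterings, scalings (edgeR 4.0.16 for TMM), UMI minimums and thinning to 10000 UMIs per cell. Leaving out cluster 4, or the oligodendrocyte-like and macrophage-like groups for the highest group, was added after the data were seen.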

Additional observations from a re-analysis of the deposited data

Results flagged for a closer look

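Among astrocyte-like cells and the single collagen-rich clusters, 3 members had log2 ratios of Nuc1 over WT, each from at least 100 UMIs, that lay at least 1 apart, with intervals clear of 0 in opposite directions. The difference between the groups was not tested, since each genotype has 1 library. For Sema3c, the ratio in cluster 1 exceeded that in cluster 4 by 2.31 (0.55 against -1.76). For Unc5c, the ratio in cluster 4 exceeded that in astrocyte-like cells by 2.45 (0.84 against -1.62), with 14 WT UMIs in cluster 4. For Epha3, the ratio in cluster 0 exceeded that in astrocyte-like cells by 1.87 (0.99 against -0.88). With the collagen-rich clusters pooled, Epha4 (0.30 against -1.54 in astrocyte-like cells) and Sema4f (1.58 against -1.55, and -0.58 in the pooled cells without cluster 4) also lay on opposite sides of 0. In WT, Epha4 was highest in cluster 4, at 33.9 CPM, and its pooled ratio without that cluster is not given here.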

How the results depend on the processing

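No paired analysis was possible because WT and Nuc1 were sequenced as 1 library each. Of 281 values for single members or small groups under the alternatives, 252 kept their side of the threshold or moved little, and so did 91 of 103 values for the counts of the main comparisons. Some of these could not move. Resolutions of 0.2 and 1.0 and leaving out cells rich in collagen RNA kept the same 1745 WT and 1265 Nuc1 collagen-rich cells. Ratios of the pooled collagen-rich cells were therefore identical under those settings. The members detected in WT astrocyte-like cells (26) were 12 with a limit of 10% mitochondrial UMIs, 17 when 30 UMIs were required and 35 with the median carry-over ratio. Those in the Ttr group (8 in WT and 4 in Nuc1) were 5 and 2 when 30 UMIs were required and 13 and 13 with the median carry-over ratio. In astrocyte-like cells the members higher and lower in Nuc1 (2 and 5) were 0 and 11 with that mitochondrial limit, where Efna1 turned to -0.87, and 0 and 3 after thinning. With at least 100 UMIs they were 1 and 3. Merging without integration gave 4 higher, and leaving out cells rich in collagen RNA gave 0. In collagen-rich cells the 5 higher members were 3 with at least 100 UMIs and 1 without cluster 4, where Nrp1 (-0.36), Sema4f (-0.58) and Sema6d (-0.29) turned in sign. Fewer cells or genes enter under these settings, and other causes were not tested. Over the alternatives, the log2 ratio ran from -2.21 to -1.86 for Plxna2, from -1.59 to -1.33 for Efnb2, from -1.52 to -1.35 for Sema3f and from 1.40 to 1.80 for Sema5a in collagen-rich cells, and from -2.04 to -1.42 for Sema3c in astrocyte-like cells. The limit of 10% mitochondrial UMIs left no motile cilia-like or Ttr group, and a resolution of 0.2 merged the Ttr and macrophage-like groups into others. Depth limits the Nuc1 macrophage-like and oligodendrocyte-like cells most, where 3 UMIs equal 40.2 and 28.1 CPM.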
